A study of Mus musculus with 6 samples.

Results

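The expression of 8 chemokine ligand genes was examined in Lewis cells, a mouse lung carcinoma line labelled as lung adenocarcinoma, that were cultured for 24 hours with SD70 or with its vehicle DMSO. SD70 is a small-molecule inhibitor of the histone demethylase KDM4C, and its dose in this experiment is not given in the sources used here. The 8 members (Ccl2, Ccl7, Ccl20, Ccl5, Ccl3, Ccl25, Cx3cl1 and Cxcl16) make up 8 of the 16081 genes listed. They were selected on the same contrast that is described here, their counts and FPKM with SD70 against DMSO, so that inducible ligands could be set beside constitutive ones. Their differences are therefore given as values with standard errors and without p-values, and the count of members past the thresholds is a description. RNA-seq was available from 3 DMSO and 3 SD70 samples of this 1 line, all of the same genotype. The study states in general that its experiments had at least 3 independent repeats. The labels do not say whether these replicates were separate cultures. If they were not, p-values given for other genes measure only the spread between these samples.

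Chemokines are small secreted proteins that bind G protein-coupled receptors on leukocytes and direct their movement along a gradient. They are sorted by the spacing of their first cysteines. CC ligands have adjacent cysteines, CXC ligands have 1 residue between them and the CX3C ligand has 3. Cx3cl1 (fractalkine) and Cxcl16 are made as transmembrane proteins with the chemokine domain on a mucin-like stalk, and metalloproteases such as ADAM10 and ADAM17 release them from the cell surface. Ccl2 and Ccl7 attract monocytes through CCR2, and Ccl20 is the ligand of CCR6 on dendritic cells, B cells and T cells. Ccl3 and Ccl5 share the receptor CCR1 and attract T cells and macrophages, Ccl25 guides T cells to the gut and thymus through CCR9, and Cxcl16 binds CXCR6. In many cell types inflammatory stimuli raise Ccl2, Ccl7, Ccl20, Ccl3 and Ccl5 through NF-kappa B, and their short-lived transcripts can carry AU-rich elements in the 3' untranslated region (UTR).

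The cysteine spacing that defines the 3 classes can be read from the coding sequence. The 30 coding bases around the first cysteines are shown for 7 of the ligands, 5' to 3' on the coding strand, with the cysteine codons in capitals, from GENCODE M21 transcripts on GRCm38. All 7 stretches lie within a single coding exon.
Ccl2 (chr11:82036494-82036523, + strand, exon 2 of 3): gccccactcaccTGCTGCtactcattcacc
Ccl7 (chr11:82046526-82046555, + strand, exon 2 of 3): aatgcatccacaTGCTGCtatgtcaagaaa
Ccl20 (chr1:83117801-83117830, + strand, exon 2 of 4): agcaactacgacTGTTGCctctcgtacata
Ccl5 (chr11:83529230-83529259, - strand, exon 2 of 3): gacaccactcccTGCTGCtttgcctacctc
Ccl25 (chr8:4353885-4353914, + strand, exon 3 of 6): gcctttgaagacTGCTGCctgggttaccag
Cx3cl1 (chr8:94778045-94778074, + strand, exon 2 of 3): acgaaaTGCgaaatcatgTGCgacaagatg
Cxcl16 (chr11:70459115-70459144, - strand, exon 2 of 5): gctggaagtTGTtctTGTgatcgtaccatt
The 5 CC ligands shown have 2 adjacent cysteine codons. Cx3cl1 has 3 codons between its capitals and Cxcl16 has 1. The transcripts shown encode 395 codons for Cx3cl1 and 246 for Cxcl16, against 91 to 148 for the 6 CC ligands.

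By RefSeq (GRCm38.p6), Ccl2 (chr11:82035577-82037452) and Ccl7 (chr11:82045712-82047525) are neighbours, Ccl5 (chr11:83525778-83530518) and Ccl3 (chr11:83647843-83649378) lie further along the same chromosome, and Cxcl16 (chr11:70454389-70459984) is elsewhere on it. Ccl20 (chr1:83116766-83119167), Ccl25 (chr8:4325205-4360020) and Cx3cl1 (chr8:94772180-94782427) lie apart. The gene models of Ccl3 and Ccl4 overlap, as do those of Cxcl16 and Zmynd15, and whether counting used the strand is not given in the sources used here, so the values of Ccl3 and Cxcl16 are uncertain to that extent.

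The deposited totals ranged from 15276744 to 17060424 counts per sample. The cells were checked against cell type markers. Epcam, Cdh1 and Krt19 reached at most 1 count in any sample, so 3 of 5 epithelial markers were near 0 in cells labelled as adenocarcinoma. The other two fell with SD70, Krt8 from 3916 to 2670 and Krt18 from 87.1 to 37.1 mean normalized counts. Of 5 fibroblast markers, Pdgfrb rose from 552 to 1606, Pdgfra fell from 1753 to 877 and Dcn fell from 1017 to 893, while Col1a1 and Thy1 stayed under 10 counts. The summed FPKM of the fibroblast list was 57.7 to 60.9 with DMSO and 56.5 to 59.8 with SD70, that of the epithelial list 148 to 155 and 94.5 to 106. The part of these shifts in the ligand values was not tested. Of 10 immune cell markers, 7 were listed, 5 of these stayed under 10 counts in every sample, and their summed FPKM ranged from 2.41 to 3.56 with DMSO and from 2.77 to 3.65 with SD70. Ptprc, which marks all leukocytes, had 0 counts in each DMSO sample and 1 or 2 with SD70. Of 4 endothelial markers, Cdh5 had 56 to 65 counts in every sample and the others at most 4. Of 3 lung epithelial markers only Sftpc was listed, with at most 1 count. In bulk RNA a change in the share of cells that make a transcript and a change in the amount per cell cannot be told apart.

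Ccl2 was the most abundant of the ligands in both groups. The DMSO samples held 9880, 10094 and 10440 deposited counts, the SD70 samples 40785, 39167 and 36387. The groups were far apart, and the samples within each varied little. Scaled to library size, means were 9814 ± 192 normalized counts for DMSO and 40105 ± 1248 for SD70 (SD, n = 3). This is a 4.09-fold difference, with a log2 fold change of 2.03 ± 0.049 (SE). In FPKM, a level scaled to transcript length and library size, Ccl2 went from 941 ± 4.75 to 3811 ± 140 (SD, n = 3). It moved from place 101 to place 6 among the 16081 listed genes.

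Ccl7, the neighbour of Ccl2 and a ligand of the same receptor, had a similar fold difference at a lower level. Counts of 651, 626 and 639 in the DMSO samples stood against 2426, 2239 and 2191 in the SD70 samples. Every SD70 sample lay above every DMSO sample. The log2 fold change was 1.94 ± 0.059 (SE), and FPKM went from 59.8 ± 2.20 to 227 ± 13.8 (SD, n = 3). The ratio of Ccl2 to Ccl7 in FPKM was 15.8 with DMSO and 16.8 with SD70.

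Ccl20 had the largest fold difference of the 7 ligands that entered the fit across genes. The DMSO samples had 469, 489 and 485 counts, and those given SD70 had 3922, 3793 and 3712. The lowest SD70 sample was far above the highest DMSO sample. The log2 fold change was 3.08 ± 0.059 (SE), or 8.46-fold. Its FPKM went from 45.1 ± 1.12, below that of Ccl7, to 378 ± 19.5, above it (SD, n = 3). Accordingly the ratio of Ccl2 to Ccl20 in FPKM went from 20.9 to 10.1.

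**Figure D1:**
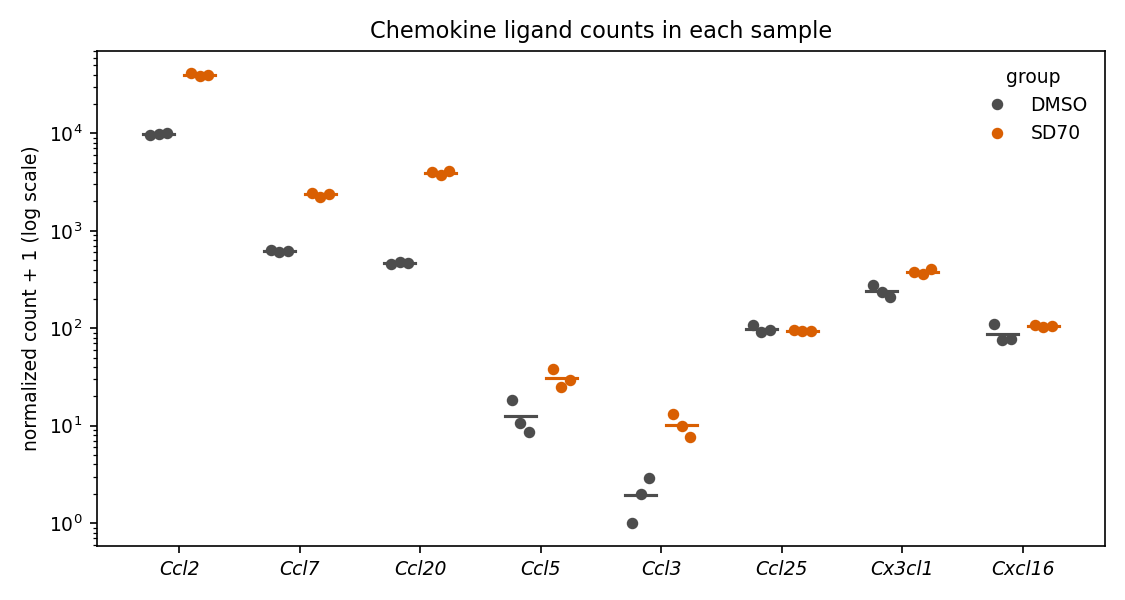
Normalized counts plus 1 of the 8 ligands on a log scale, 1 point per sample, with the group mean as a line (DMSO grey, SD70 orange, 3 samples each). The groups lie apart for Ccl2, Ccl7, Ccl20, Ccl5, Ccl3 and Cx3cl1 and overlap for Ccl25 and Cxcl16.

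The other inducible CC ligands were close to the limit of detection. Ccl5 was counted 18, 10 and 8 times in the DMSO samples and 37, 24 and 26 times in the SD70 samples. The groups did not overlap, although the highest DMSO sample came near the lowest SD70 sample. The log2 fold change was 1.36 ± 0.31 (SE). Leaving out DMSO replicate 1 gave 1.77, and the range over the 6 samples left out in turn was 1.12 to 1.77. For Ccl3 the counts were 0, 1 and 2 (DMSO) and 12, 9 and 6 (SD70), too few to pass the filter on low counts. The sums were 3 and 27 counts, a ratio of 9.61 after scaling to the effective library sizes (95% interval 2.96 to 49.5, covering counting error only).

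The remaining members, Cx3cl1, Cxcl16 and Ccl25, had smaller fold differences. The selection did not name which members were meant as constitutive. Of these 3, Cx3cl1 was higher in every SD70 sample. Its counts of 282, 242 and 216 (DMSO) compared with 375, 361 and 365 (SD70). The groups did not overlap, and the log2 fold change was 0.67 ± 0.092 (SE), or 1.59-fold. Cxcl16 had expected counts of 111.94, 76.89 and 79.83 (DMSO) and 105.89, 102.51 and 94.69 (SD70), fractional in all 6 samples. DMSO replicate 1 was the highest of all 6 after scaling too, so the groups overlapped. The log2 fold change was 0.27 ± 0.15 (SE), and it was 0.47 without DMSO replicate 1, 0.16 without DMSO replicate 2 and 0.18 without DMSO replicate 3. Ccl25 had 109, 94 and 98 counts (DMSO) and 93, 93 and 84 counts (SD70). After scaling for depth its groups overlapped, with a log2 fold change of -0.06 ± 0.14 (SE).

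**Figure D2:**
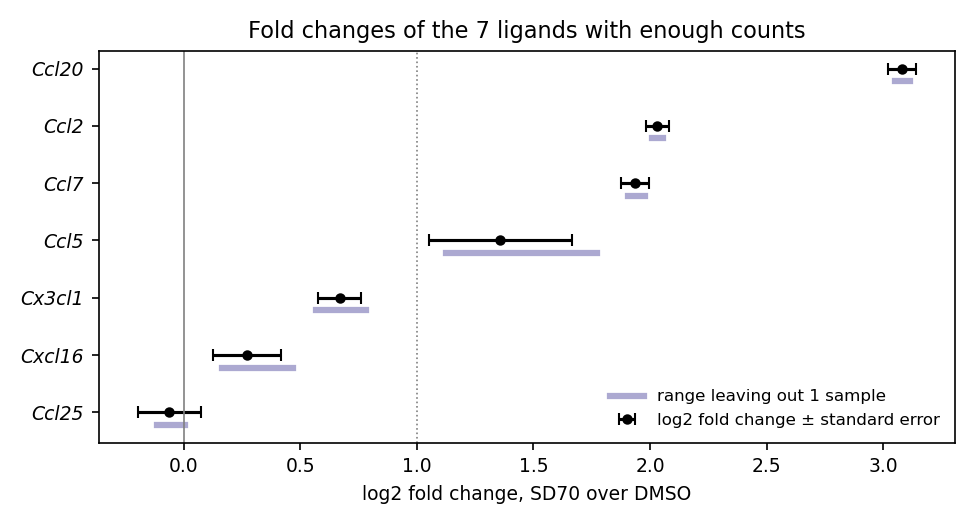
Log2 fold change of SD70 over DMSO (black points, bars are the standard error) for the 7 ligands that passed the filter on low counts, with the range when each sample was left out in turn (purple). The dotted line is the 2-fold mark: Ccl20, Ccl2, Ccl7 and Ccl5 lie to its right, and Cx3cl1 at 0.67, Cxcl16 and Ccl25 lie to its left.

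A gene was called at an adjusted p under 0.01 and at least a 2-fold difference. Of the 7 ligands in the fit, 4 passed that rule as higher (Ccl2, Ccl7, Ccl20 and Ccl5), beside 3.29% of the 11552 genes tested, and 0 as lower, beside 2.61%. With no fold minimum Cx3cl1 joined them, and the shares of all genes were 25.8% higher and 24.2% lower. All SD70 samples lay above all DMSO samples for 5 of these 7 ligands and for Ccl3, beside 32.8% of tested genes, and below for 0, beside 31.6%. The median log2 fold change was 1.36 over the 7 ligands and -0.0043 over all genes tested. Because the ligands were chosen by this contrast, nothing is read from these counts. The members nearest to the limit of 1 on the log2 scale were Ccl5 at 1.36 above it and Cx3cl1 at 0.67 below it.

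The order of the levels also differed between the groups. With DMSO, mean FPKM fell in the order Ccl2, Ccl7, Ccl20, Ccl25 (6.63 ± 0.70), Cx3cl1 (4.92 ± 0.71), Cxcl16 (3.07 ± 0.66), Ccl5 (1.97 ± 0.94) and Ccl3 (0.093 ± 0.090, SD, n = 3). In that order the samples of Cxcl16 and Ccl5 overlapped. With SD70 the order was Ccl2, Ccl20, Ccl7, Cx3cl1 (7.64 ± 0.44), Ccl25 (6.15 ± 0.090), Ccl5 (5.07 ± 1.21), Cxcl16 (3.60 ± 0.46) and Ccl3 (0.90 ± 0.27). Here the samples of Ccl25 and Ccl5 overlapped. Ccl20 and Ccl7 thus exchanged places, as did Cx3cl1 and Ccl25, and Cxcl16 and Ccl5.

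**Figure D3:**
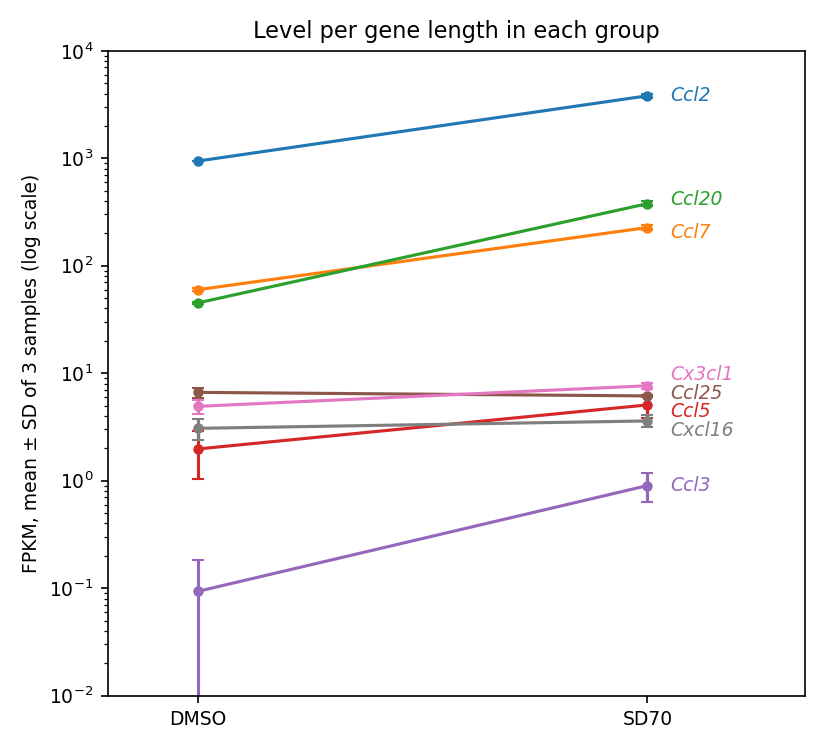
FPKM of each ligand with DMSO and with SD70 on a log scale, as the mean with the SD of 3 samples. The lines of Ccl20 and Ccl7 cross (45.1 and 59.8 with DMSO, 378 and 227 with SD70), while Ccl25 and Cxcl16 stay within a narrow band. The lower bar of Ccl3 with DMSO runs off the axis, because its SD is about as large as its mean.

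Ccl2 made up most of the summed FPKM of the 8 ligands. It was 88.6% ± 0.46 of that sum with DMSO and 85.9% ± 0.33 with SD70 (SD, n = 3). The share of Ccl20 was 4.24% with DMSO and 8.51% with SD70. Of the FPKM of all 29 listed chemokine ligands Ccl2 held 29.3% and 30.1%, and its level was below that of Cxcl1 (1860 FPKM with DMSO, 6478 with SD70). Within the 8 ligands, both transmembrane ligands together held 0.751% of the summed FPKM with DMSO and 0.253% with SD70, although the level of Cx3cl1 itself was higher with SD70. The 8 ligands were 33.1% ± 2.04 of the FPKM of all 29 listed chemokine ligands with DMSO and 35.1% ± 0.34 with SD70. The ranges of that share over samples were 30.8 to 34.6% and 34.8 to 35.5%, close to each other while the summed FPKM of all ligands went from 3218 ± 207 to 12648 ± 605.

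Genes with profiles over the 6 samples nearest to a ligand's were sought, for ligands with at least 100 mean normalized counts. The measure was the root mean square distance between centred log2 CPM values. With little spread within groups, this distance mostly follows the fold change, on which the ligands were selected. Log2 fold changes were 3.08 for Ccl20 and 3.07, 3.00 and 3.01 for Cxcl3, Rnd1 and Cxcl10, for example. Shared regulation was not tested. Nearest to Ccl2 was Ccl7 (distance 0.064), followed by Traf1 and Tsc22d3 (0.072 and 0.085). For Ccl7 they were Gpcpd1, Gm32856 and Ccl2 (0.059, 0.061 and 0.064). For Ccl20 they were the CXC ligand Cxcl3, Rnd1 and Cxcl10 (0.082, 0.092 and 0.12). For Cx3cl1 they were Ptprq, Fes and Mocs1 (0.058, 0.061 and 0.062).

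AU-rich elements are built from the pentamer ATTTA, here in DNA letters, so its copies in the 3' UTR were counted in 1 GENCODE M21 transcript per gene, preferring those with a RefSeq mRNA entry. Over 14816 listed genes the median was 1.20 pentamers per kilobase, and 34.5% had none. Ccl3 had 5 in 409 bases (12.2 per kilobase, a density reached by 0.614% of genes) and Ccl20 had 5 in 450 bases (11.1 per kilobase, reached by 0.857%). Ccl7 had 2 in 435 bases (4.60 per kilobase), Ccl2 had 1 in 275 bases (3.64), Cxcl16 had 2 in 1421 bases (1.41) and Cx3cl1 had 1 in 1871 bases (0.534). Ccl5 and Ccl25 had 0. The choice of transcript matters for Ccl20: its transcript with the longest coding sequence, used in a first pass, has 9 pentamers in 1050 bases (8.57 per kilobase). It matters for Ccl25 too, as 1 of its 3 coding transcripts has 1 pentamer in 300 bases. The 30-base windows with the most pentamers, in capitals, are shown for the ligands with the largest fold differences (Ccl20 and Ccl3), for the most abundant ligand and for Cx3cl1.
Ccl20 (chr1:83119055-83119084, + strand, 3' UTR in exon 4): tgtaaagatATTTAatgttctgtttATTTA
Ccl3 (chr11:83648085-83648114, - strand, 3' UTR in exon 3): gactcttcacttgaaattttATTTAATTTA
Ccl2 (chr11:82037193-82037222, + strand, 3' UTR in exon 3): tgatgccttaattaatattaaacttATTTA
Cx3cl1 (chr8:94780837-94780866, + strand, 3' UTR in exon 3): gacaccccaactccagtgaacaattATTTA
The windows of Ccl20 and Ccl3 hold 2 pentamers each, and 17.3% of genes hold 2 or more in their best window. The other windows shown hold 1. These letters are a description of the transcripts, and RNA stability was not measured.

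**Figure D4:**
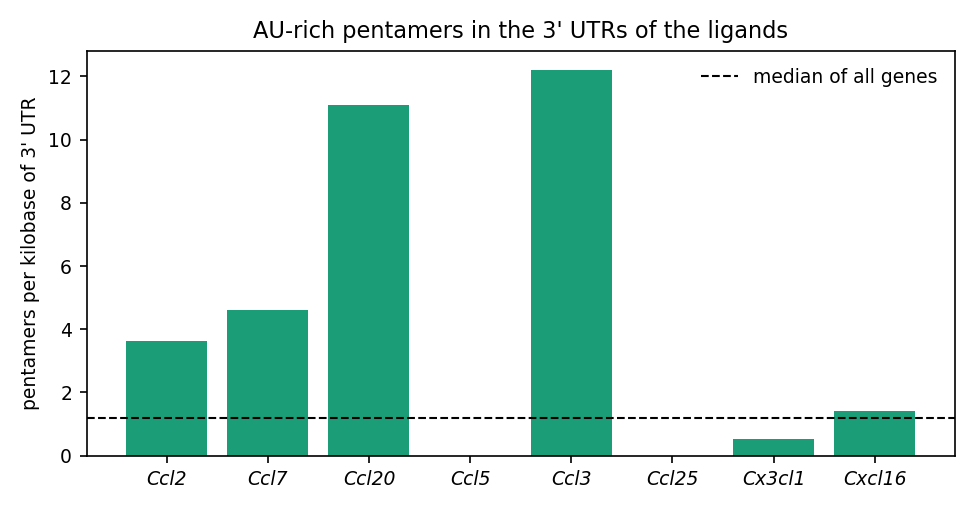
Copies of the AU-rich pentamer per kilobase of 3' UTR for the 8 ligands (bars), with the median over 14816 listed genes as a dashed line. Ccl3 (12.2) and Ccl20 (11.1) stand highest, Ccl5 and Ccl25 have none, and Cx3cl1 (0.534) lies below the median of 1.20.

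Promoter windows from RefSeq (GRCm38.p6, 250 bases before to 50 after the start) matched 4 of the 8 ligands: Ccl20, Ccl3, Cx3cl1 and Ccl25, the last with 2 starts. The 250 upstream bases of Ccl20 and Ccl3, with large fold differences, and of Cx3cl1, with a small one, are shown on the gene's strand, with matches to the motifs below in capitals.
Ccl20 (chr1:83116516-83116765, + strand): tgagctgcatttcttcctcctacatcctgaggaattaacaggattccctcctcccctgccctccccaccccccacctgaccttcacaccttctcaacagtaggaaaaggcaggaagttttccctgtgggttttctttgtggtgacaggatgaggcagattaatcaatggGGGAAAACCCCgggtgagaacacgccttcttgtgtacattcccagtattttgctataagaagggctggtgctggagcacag
Ccl3 (chr11:83649379-83649628, - strand): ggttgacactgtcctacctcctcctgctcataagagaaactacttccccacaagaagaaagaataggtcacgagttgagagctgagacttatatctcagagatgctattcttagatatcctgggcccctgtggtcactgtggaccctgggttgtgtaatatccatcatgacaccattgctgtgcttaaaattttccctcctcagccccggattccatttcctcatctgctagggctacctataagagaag
Cx3cl1 (chr8:94771930-94772179, + strand): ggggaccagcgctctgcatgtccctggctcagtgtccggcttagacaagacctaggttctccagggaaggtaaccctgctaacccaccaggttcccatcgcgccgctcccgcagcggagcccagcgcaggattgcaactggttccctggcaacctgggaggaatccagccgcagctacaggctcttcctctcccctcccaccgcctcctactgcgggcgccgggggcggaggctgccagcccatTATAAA
The Ccl20 window holds GGGANNNNCC at -81 to -72, a form of the NF-kappa B site found in 20.7% of 32851 windows of this length. The stricter NF-kappa B consensus, found in 8.46% of windows, matches the other strand at -80 to -71, overlapping the first match and added after that match had been seen. TATAAA, sought on the gene's strand only, lies at -6 to -1 in Cx3cl1 and at -16 to -11 in the second Ccl25 window (8.32% of windows). TGANTCA (7.81%), GAAANNGAAA (3.44%) and TGATGNAA (3.97%), sought on both strands, are not in these windows. CpG dinucleotides numbered 3 in the windows of Ccl20 and of Ccl3, 19 in that of Cx3cl1, and 52 and 1 in those of Ccl25, beside a median of 7.

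Chemokine ligands outside the 8 were examined by class. Of 19 other CC and XC ligand genes, 9 were listed and Ccl28 alone passed the filter on low counts, at a log2 fold change of 0.19 (edgeR adjusted p = 0.631). Ccl11, Ccl12 and Ccl8, which follow Ccl2 and Ccl7 on the chromosome, reached at most 2 counts in any sample, as did Ccl4 beside Ccl3 and Ccl6 and Ccl9 near Ccl5. In these clusters Ccl2 and Ccl7 therefore stood far above the listed CC neighbours. Ccl22 and Ccl17, on either side of Cx3cl1, reached at most 3 counts. Of the CXC ligands other than Cxcl16, 5 of 6 tested rose and 0 fell at an adjusted p under 0.01, beside 25.8% and 24.2% of all genes tested. Among them Cxcl5 had a log2 fold change of 3.15 ± 0.17 (SE, edgeR adjusted p = 8.27e-16) and Cxcl2 of 2.57 ± 0.059 (SE, edgeR adjusted p = 5.54e-25). Cxcl3 had a log2 fold change of 3.07 ± 0.098 (SE, edgeR adjusted p = 6.88e-24) and Cxcl10 of 3.01 ± 0.18 (SE, edgeR adjusted p = 1.9e-16).

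The receptors of these ligands were barely detected in the tumour cells. Ccr1, Ccr6, Ccr9, Cx3cr1, Cxcr6 and the scavenging receptors Ackr2 and Ackr4 reached at most 4 counts in any sample, and Ccr2, Ccr3 and Ackr1 were not analysed here. Of 3 receptor genes tested, 1 rose and 1 fell, beside 25.8% and 24.2% of all genes. Ackr3, a scavenger of Cxcl12 and Cxcl11, fell by 1.27 on the log2 scale (edgeR adjusted p = 3.79e-15). Ccrl2, which binds chemerin without signalling, rose with a log2 fold change of 0.99 (edgeR adjusted p = 0.00208), just under 2-fold. It missed that p threshold without DMSO replicate 2 (edgeR adjusted p = 0.0301) or SD70 replicate 1 (adjusted p = 0.0198). With a replicate block it passed the 2-fold limit as well (log2 fold change 1.01, adjusted p = 0.00112). The same held without DMSO replicate 3 (1.36, adjusted p = 0.000279) and without SD70 replicate 2 (1.09, adjusted p = 0.00344).

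Of 17 tested genes for shedding and cleavage of chemokines, 6 rose and 8 fell at an adjusted p under 0.01 (25.8% and 24.2% of all genes). The list also holds metalloprotease inhibitors, and Timp2 (log2 fold change -0.27) is among the 8 that fell. The sheddases of the transmembrane ligands moved by small amounts in opposite directions. Adam17 rose with a log2 fold change of 0.24 (edgeR adjusted p = 0.000113) and Adam10 fell by 0.21 on the log2 scale (edgeR adjusted p = 0.000506). Mmp13, a collagenase, rose from 66.1 ± 5.21 to 257 ± 8.57 normalized counts (SD, n = 3, log2 fold change 1.96). Mmp12, a macrophage elastase that can trim CC ligands, had a log2 fold change of 0.99 (edgeR adjusted p = 0.00353). It missed the p threshold without DMSO replicate 2 (adjusted p = 0.0324), SD70 replicate 1 (0.0424) or SD70 replicate 3 (0.0175). It passed the 2-fold limit as well without DMSO replicate 1 (log2 fold change 1.03), DMSO replicate 3 (1.16) or SD70 replicate 2 (1.22). Tspan17, a partner of ADAM10, and Frmd8, a partner of the iRhom proteins that carry ADAM17, fell by 0.56 and 0.49 on the log2 scale.

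Secreted chemokines are held on heparan sulfate, so genes for its chains and core proteins were listed too. Of 16 tested, 3 rose and 7 fell, beside 25.8% and 24.2% of all genes. Glce, the epimerase of heparan sulfate glucuronic acid, rose with a log2 fold change of 1.16. Sdc3, a syndecan core protein, Ndst2, a sulfotransferase, and Hspg2, the core protein perlecan, fell by 0.80, 0.62 and 0.59 on the log2 scale.

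Transcription factors and inhibitors linked to chemokine induction mostly rose. Of 24 tested, 17 rose and 4 fell (25.8% and 24.2% of all genes), with a median log2 fold change of 0.70 beside -0.0043 over all genes. Atf3, a stress-induced factor, went from 285 ± 11.9 to 3802 ± 365 normalized counts (SD, n = 3, log2 fold change 3.74). Nfkbiz, a nuclear NF-kappa B cofactor, Relb, an NF-kappa B subunit, and Nfkbie, an inhibitor, rose with log2 fold changes of 1.62, 1.43 and 1.37.

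Of 11 genes for decay or stability of cytokine transcripts, 5 rose and 1 fell, beside 25.8% and 24.2% of all genes. Arid5a, which stabilizes some inflammatory transcripts, rose from 594 ± 48.0 to 4159 ± 334 normalized counts (SD, n = 3, log2 fold change 2.81). Zc3h12a (Regnase-1), a nuclease that degrades such transcripts, and its relative Zc3h12c rose with log2 fold changes of 0.89 and 0.38. Zfp36l2, which binds AU-rich elements, fell by 0.32 on the log2 scale.

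Of 20 tested genes for cytokines, receptors and adaptors that can induce chemokines, 10 rose and 3 fell (25.8% and 24.2% of all genes). Tlr2, Myd88, Il17ra and Traf2, which take part in Toll-like, interleukin-17 and TNF receptor signalling, rose with log2 fold changes of 2.18, 1.04, 0.96 and 0.87. The cytokine Il1a had a log2 fold change of 2.24 (edgeR adjusted p = 1.84e-06) at a mean of 5.17 normalized counts with DMSO and 24.7 with SD70. It passed the filter on low counts only through the SD70 samples, so this p-value is given as a description. Tnf itself had 0 counts in each DMSO sample and 5, 5 and 6 with SD70, too few to be tested. The nearest listed genes on each side of the ligands comprised 38 genes, up to 1564528 bases away (Cdk5r1 from Ccl7). Of these 20 were tested, 11 rose and 0 fell, again beside 25.8% and 24.2%. Those that rose were mostly neighbours of Ccl25, Cx3cl1 and Cxcl16, which were not called, and not of Ccl2, Ccl7 or Ccl3. Mmp28 and Taf15 near Ccl5 rose with log2 fold changes of 1.31 and 0.81, although Mmp28 had fractional counts in most samples. Ciapin1 near Cx3cl1 and Med11 near Cxcl16 rose with log2 fold changes of 0.49 and 0.48.

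**Figure D5:**
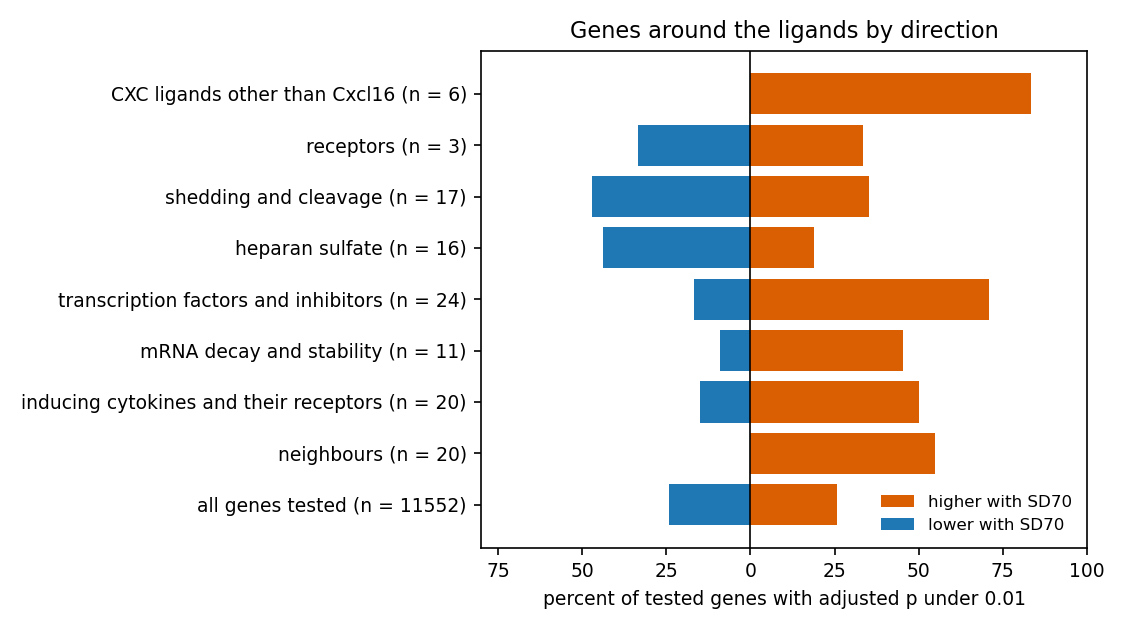
Percent of the tested genes of each list with an adjusted p under 0.01, higher (orange, to the right) or lower (blue, to the left) with SD70, and the same over all 11552 genes tested. The lists hold few genes (n beside each name). Of the transcription factors and inhibitors 17 of 24 rose, beside 25.8% of all genes. Of the shedding and cleavage list, which includes protease inhibitors, 8 of 17 fell, beside 24.2%.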

How the data were processed

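RNA-seq of 6 samples (3 DMSO, 3 SD70, 24 hours) was used. According to the study's methods, reads were aligned to GRCm38.p6 with HISAT, while the submitters' processing notes list StringTie 1.3.3b and mm8 without a role. The authors deposited an expected count per gene and sample, left unnormalized and fractional in 8.84 to 9.28% of values. The authors also deposited FPKM, normalized for length and library size. Expected counts were rounded, filtered with filterByExpr, normalized by TMM and tested with edgeR 4.0.16 (quasi-likelihood) in R 4.3.3, with Benjamini-Hochberg adjustment over 11552 genes. DESeq2 1.42.0 and limma 3.58.1 served as alternatives. On simulated counts edgeR recovered 200 of 200 genes changed by a log2 fold change of 2. These were drawn only from well-counted genes, and all genes were given the same spread between samples. The simulation therefore does not cover ligands with few counts, such as Ccl5 and Ccl3, or differences near the 2-fold limit. Samples of a group differed beyond counting noise, at a chi-square of 2.12 to 4.97 per gene. Totals of 15276744 to 17060424 counts leave a counting error of about 10% per sample for Ccl25 and Cxcl16, more for Ccl5 and Ccl3, and less for the others.

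The members and gene lists were chosen with earlier results of these data known, and the sequence windows, motifs, ratios and counting intervals were chosen later still. The text names the 8 members, up to 4 genes per list past an adjusted p of 0.01 with the largest fold change and at least 20 mean normalized counts, Adam10, Adam17, the ligands' receptors and the 3 nearest profiles per member. Other genes named beside them (Ccl4, Ccl6, Ccl8, Ccl9, Ccl11, Ccl12, Ccl17, Ccl22, Ccl28, Cxcl1, Il1a, Tnf and markers) were picked after their values were seen.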

Additional observations from a re-analysis of the deposited data

How the results depend on the processing

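The log2 fold change of Ccl25, not called in any fit, changed sign without DMSO replicate 1 (0.0057 against -0.062, range from -0.12), and no called result reversed under the alternatives run. The total of 681 called genes (380 higher, 301 lower) became 283 (202 and 81) with limma on log2(FPKM + 1) and 5767 (2976 and 2791) with no fold minimum, which admits small differences by construction. Leaving out 1 sample in turn gave 621 to 721. The ligands called higher numbered 3 to 5: Ccl3 was added when all genes with at least 1 count were fitted and Cx3cl1 with no fold minimum, while Ccl5 was lost with limma on log2(FPKM + 0.1) and was not tested where each sample had to reach 10 counts. Ccrl2 and Mmp12 also missed the threshold with DESeq2 (adjusted p = 0.0137 and 0.0213).

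The labels number the replicates 1 to 3 in both groups but do not say that equal numbers were handled together. Whether the numbers pair the samples was not settled. The first check (genes with at least 100 mean counts, pseudocount 1, Pearson) gave same-number correlations of 0.181, 0.283 and 0.172, all above the limit of 0.1. After this was seen the check was widened to 24 settings (6 count minimums, 2 pseudocounts, Pearson or Spearman). All 3 pairs passed in 4 of these 24 settings, Pearson at minimums of 50 and 100, and every sample correlated best with its own number in the same 4. In the other 20 settings 1 pair passed, including all 12 with Spearman. Samples of different numbers also correlated. DMSO replicate 3 and SD70 replicate 2 reached 0.361 (minimum 1000, pseudocount 1, Pearson), above the highest same-number correlation of 0.305. A replicate block gave 692 called genes and the same 4 ligands called higher.

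With 3 samples a group, and 0 to 37 counts for Ccl5 and Ccl3, small differences in these ligands were not detectable.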
